A study of Mus musculus with 6 samples.

Results

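The 10 genes described here encode the granins and the enzymes that process prohormones: Chga, Chgb, Scg2, Scg3, Scg5, Vgf, Pcsk1, Pcsk2, Cpe and Pcsk1n. They were chosen by gene symbol for their shared role from 54429 genes counted in the prefrontal cortex (PFC) of mice aged 6 months. All 10 passed the filter on low counts, which kept 20409 genes. RNA sequencing was done on 6 libraries, 2 biological replicates in each of 3 groups: wild-type mice given vehicle (WT), P301S Tau mice given vehicle (Tau), and P301S Tau mice given UNC0642, an inhibitor of the histone methyltransferases EHMT1 and EHMT2 (Tau + UNC0642).

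The P301S Tau mice, labelled PS19(P301S), carried the 1N4R form of human tau with the P301S mutation, driven by the mouse prion protein (Prnp) promoter, on a B6C3H/F1 background, and the WT mice, labelled (C57BL/6 x C3H), were littermates. UNC0642 was given by intraperitoneal injection daily for 3 days at a dose of 1 mg/kg, and vehicle was saline with DMSO. No WT mice given UNC0642 were sequenced in the libraries used here, so the compound was compared only within Tau mice. Each group held 2 mice. The p-values rest on the spread of these few animals within groups, estimated from all 6 libraries together with information shared between genes.

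Granins are acidic proteins that are stored with neuropeptides and peptide hormones in dense-core vesicles of neurons and endocrine cells. Peptide precursors are cut inside these vesicles by the prohormone convertases PC1/3 (Pcsk1) and PC2 (Pcsk2), and carboxypeptidase E (Cpe) then trims the basic residues left at the new ends. Each convertase has a small partner protein: 7B2, the product of Scg5, is a chaperone and inhibitor of PC2, and proSAAS, the product of Pcsk1n, inhibits PC1/3. In the cortex these genes are best known from interneurons that release peptides and from pyramidal neurons whose vesicles carry peptides and growth factors.

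Many genes of this family are known targets of the transcription factor CREB, which binds the cAMP response element TGACGTCA in promoters near the start of transcription. Promoters of 300 bases from RefSeq (GRCm38.p6) were at hand for 8 of the 10 genes, and neither Vgf nor Cpe had one in the table used. The complete element, searched on both strands, lay in 3 of these 8 promoters, those of Chgb, Scg2 and Pcsk1, and in 1.79% of 32851 mouse promoters. The windows of 30 bases around the 3 complete elements are shown because Scg2 and Pcsk1 were called higher in Tau mice while Chgb was not. The core TGACG, found on either strand and also contained in each complete element, lay in 7 of the 8 promoters and in 20.8% of all promoters, and Pcsk1n was the one without it. The window of Chga is shown for comparison because this gene, with the core alone, was also called. Sequences run 5′ to 3′ in the direction of the gene, with the element or core in capitals.
Chgb: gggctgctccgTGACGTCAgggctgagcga
Scg2: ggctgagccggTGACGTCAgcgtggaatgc
Pcsk1: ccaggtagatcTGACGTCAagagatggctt
Chga: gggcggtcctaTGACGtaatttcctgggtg
The Chgb window is chr2:132781559-132781588 on the plus strand, with the element starting 72 bases before the RefSeq start of the gene. The Scg2 window is chr1:79440076-79440105 on the minus strand (68 bases before the start), and the Pcsk1 window is chr13:75089768-75089797 on the plus strand (78 bases before). The Chga window is chr12:102554886-102554915 on the plus strand, with the core starting 44 bases before the start. GENCODE M21, used below for gene positions, starts Chgb at 132781278 and Scg2 at 79440120. The Chgb and Scg2 windows therefore lie inside the GENCODE spans of these genes, while those of Pcsk1 and Chga lie before the GENCODE starts. A match is a description of the letters only, and binding of CREB was not measured.

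The libraries held between 17005664 and 28972176 counts, and the 10 genes had between 1614 and 49506 counts in a library. Several facts about whole libraries touch the results. The library labelled WT replicate 1 had 1652 CPM (counts scaled to a common library size) of Prnp, near the 1470 to 1694 CPM of the Tau and Tau + UNC0642 libraries and above the 873 CPM of WT replicate 2. Mapt, the mouse tau gene, had 449 CPM in WT replicate 2 and 570.5 to 614 CPM in the other 5 libraries. Since the transgene is driven by the Prnp promoter, the WT genotype of WT replicate 1 is in doubt, which bears on every comparison with WT. The group names below are those of the labels, and calls of the 10 genes that change without this library are given with that value. Xist, the RNA that coats the silenced X chromosome in females, had 4104 to 8107 counts in WT replicate 2 and both Tau libraries and 2 to 5 counts in the other 3 libraries, which in turn held 95.1 to 101 CPM of the Y-linked gene Ddx3y. The difference between Tau + UNC0642 and Tau therefore coincided with sex, and treatment and sex cannot be told apart there. Tau replicate 2 had 5794 CPM over 10 oligodendrocyte markers and 175 CPM over 9 striatal neuron markers, against at most 3093 and 83.3 CPM in any other library. The summed CPM of 10 neuron markers lay at 8748 and 8629 in WT, 9541 and 9288 in Tau and 9851 and 9721 in Tau + UNC0642. The sum of these general neuron markers was thus higher in all 4 libraries labelled P301S Tau. In Tau against WT 2 of the 10 neuron markers were called higher and 0 lower (3.72% and 6.1% of all genes). In Tau + UNC0642 against WT 3 were called higher and 1 lower (3.77% and 5.69% of all genes). The summed CPM of 6 GABAergic neuron markers was 1010 and 775 in WT, 864 and 859 in Tau and 797 and 815 in Tau + UNC0642. For this sum all 4 libraries labelled P301S Tau lay between the WT libraries. Hypothalamic and pituitary markers, which would mark tissue very rich in granins, summed to at most 3.26 CPM, and Avp and Oxt had 3 or fewer counts in every library. Ehmt1 (43.6 to 49.0 CPM) and Ehmt2 (131 to 161 CPM), the targets of UNC0642, were not called in any comparison. In bulk tissue, fewer cells of a type and less RNA per cell cannot be told apart.

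Levels in CPM, with library sizes scaled by the TMM method, are given for each library, replicate 1 first. A gene was called where edgeR's quasi-likelihood test gave an unadjusted p-value under 0.05 and the groups differed by 1.2-fold or more, the threshold of the study. Adjusted p-values are Benjamini-Hochberg values over all 20409 genes. The comparisons share libraries, so a high or low Tau library moves the first and second comparisons in opposite directions.

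In Tau mice 3 of the 10 genes, Chga, Scg2 and Pcsk1, rose against WT by 1.23 to 1.30-fold, and none fell. Among all genes tested, 3.72% were called higher and 6.1% lower. The median log2 fold change of the 10 genes was 0.16, with a range from -0.25 to 0.38, beside a median of -0.0001 over all genes. After adjustment in edgeR 0 of the 10 passed 0.05, and 0.157% of all genes did. Cpe, higher in Tau, and Pcsk1n, lower in Tau, had unadjusted edgeR p-values of 0.0221 and 0.0334 but fell short of 1.2-fold. DESeq2 left 1 of the 10 after adjustment (153 of 20409 genes) and limma-voom left 0 (25 of 20409). With no filter on low counts, edgeR left 3 (Chga, 0.00703; Scg2, 0.0352; Pcsk1, 0.00563), and 656 of 34535 genes passed there. Without WT replicate 1, the library whose genotype is in doubt, the genes called were again Chga (0.43), Scg2 (0.42) and Pcsk1 (0.34).

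Tau + UNC0642 libraries differed from Tau libraries in 3 of the 10 genes: Pcsk1 and Scg5 rose and Chga fell. Of all genes tested, 3.73% were called higher and 3.95% lower, and 0.0196% passed 0.05 after adjustment. The median of the 10 genes was -0.10 on the log2 scale (range -0.34 to 0.30), beside -0.0023 over all genes. After adjustment 0 of the 10 passed 0.05 in edgeR, DESeq2 or limma-voom. With no filter, edgeR left 2, Chga with an adjusted p of 0.0231 and Scg5 with 0.0247, and 483 of 34535 genes passed there. In the filtered edgeR fit no other gene of the 10 had an unadjusted p-value under 0.05. Because both Tau libraries had high Xist and both Tau + UNC0642 libraries low Xist, a fit with a term for Xist took that term from the 2 WT libraries alone. Any other difference between those WT libraries enters the term too, so this fit cannot separate sex from treatment. In it Chga (-0.46), Scg2 (-0.35) and Pcsk1 (0.35) were called and Scg5 (0.12) was not. Against WT, the Tau + UNC0642 libraries had Pcsk1 higher and Pcsk1n lower, where 3.77% of all genes were called higher and 5.69% lower. Pcsk1 was the one gene of the 10 that passed 0.05 after adjustment in that comparison, as did 0.216% of all genes. Without WT replicate 1, Chgb (0.27) and Scg2 (0.31) were called higher too. The median there was 0.04 (range -0.29 to 0.66), beside -0.01 over all genes.

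**Figure D1:**
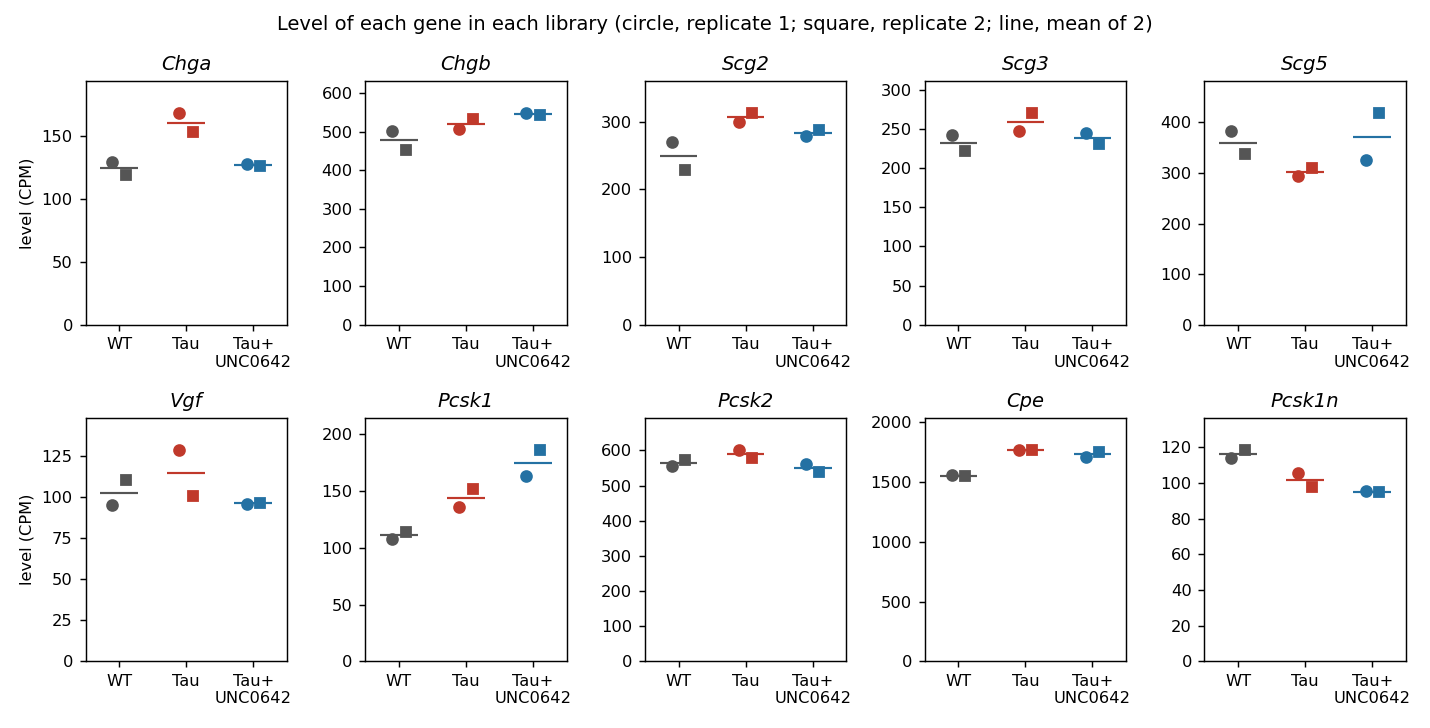
Level of each of the 10 genes in each library, in CPM on a linear axis from 0, for WT, Tau and Tau + UNC0642. Circles are replicate 1, squares replicate 2 and lines the mean of the 2 libraries. Chga stood highest in both Tau libraries, and Pcsk1 had 108 and 114 CPM in WT and 163 and 187 CPM in Tau + UNC0642, with no overlap between groups.

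Chga encodes chromogranin A, an acidic granin that takes part in forming dense-core vesicles and is itself cut into several peptides. The gene lies at chr12:102554969-102565028 on the plus strand (GRCm38, GENCODE M21). Its level was 129 and 119 CPM in WT, 168 and 153 CPM in Tau and 128 and 126 CPM in Tau + UNC0642. Both Tau libraries stood above all 4 others. Chga rose by a log2 fold change of 0.37 ± 0.08 (SE, n = 2 against 2; 95% interval 0.19 to 0.55, edgeR adjusted p = 0.17) in Tau against WT. It fell by 0.34 ± 0.08 on the log2 scale (95% interval -0.52 to -0.16, edgeR adjusted p = 0.327) in Tau + UNC0642 against Tau. Between Tau + UNC0642 and WT the log2 difference was 0.03, with an interval from -0.15 to 0.21. Both calls were made in all 6 fits that left out a library, and without Tau replicate 2, the library rich in oligodendrocyte and striatal markers, the log2 fold changes were 0.44 and -0.41. With only WT replicate 2, the WT library that matched the Tau libraries in Xist, the rise in Tau was 0.43. Chga was among the genes that the study picked from these same libraries, so these values are not independent evidence of its direction.

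Chgb encodes chromogranin B, an acidic granin of dense-core vesicles like chromogranin A. The gene lies at chr2:132781278-132795079 on the plus strand. It had 502 and 453 CPM in WT, 507 and 531.5 CPM in Tau and 549 and 542 CPM in Tau + UNC0642. The Tau + UNC0642 libraries were the highest, while WT replicate 1 lay just under Tau replicate 1. No comparison was called: the log2 fold changes were 0.12 (95% interval -0.05 to 0.29) for Tau against WT and 0.07 (-0.10 to 0.24) for Tau + UNC0642 against Tau. Against WT the Tau + UNC0642 libraries were 1.14-fold higher (log2 0.19, 0.02 to 0.36), short of the 1.2-fold required. Without WT replicate 1 this log2 fold change was 0.27 and was called.

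Scg2 encodes secretogranin II, the precursor of secretoneurin, and lies at chr1:79434669-79440120 on the minus strand. Its level was 270.2 and 229 CPM in WT, 299 and 313 CPM in Tau and 279 and 287 CPM in Tau + UNC0642. WT replicate 2 was the lowest library, and the 4 libraries labelled P301S Tau lay above both WT libraries. Scg2 rose in Tau by a log2 fold change of 0.30 ± 0.09 (95% interval 0.10 to 0.49, edgeR adjusted p = 0.271). The call rested on WT replicate 2: without it the log2 fold change was 0.18 and not called, and without WT replicate 1 it was 0.42. After UNC0642 the log2 difference from Tau was -0.11 (-0.31 to 0.08), and it was called, at -0.35, only in the fit with a term for high or low Xist. The difference from WT was 0.18 (-0.01 to 0.38), which became 0.31 and was called without WT replicate 1.

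Scg3 encodes secretogranin III, which binds chromogranin A and cholesterol at the vesicle membrane, and lies at chr9:75643189-75684056 on the minus strand. It had 243 and 221 CPM in WT, 248 and 271 CPM in Tau and 245 and 231 CPM in Tau + UNC0642. The Tau + UNC0642 libraries fell within the span of the WT and Tau libraries. The log2 fold changes were 0.16 (-0.02 to 0.34), -0.12 (-0.30 to 0.06) and 0.04 (-0.14 to 0.22) for Tau against WT, Tau + UNC0642 against Tau and Tau + UNC0642 against WT, and none was called in any alternative fit.

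Vgf, which is induced by nerve growth factor and gives rise to several peptides such as TLQP-21, lies at chr5:137026392-137033351 on the plus strand. It had 94.9 and 110.2 CPM in WT, 129 and 101 CPM in Tau and 95.9 and 96.1 CPM in Tau + UNC0642. Tau replicate 1 was far above Tau replicate 2, which lay between the WT libraries. No comparison was called, with log2 fold changes of 0.16 (-0.10 to 0.43) for Tau against WT and -0.26 (-0.52 to 0.0035) for Tau + UNC0642 against Tau. Each value depended on single libraries. Without Tau replicate 2 they were 0.33 and -0.43, both called, and without Tau replicate 1 they were -0.03 and -0.07. The first was 0.06 without WT replicate 1 and 0.28 without WT replicate 2. With a term for Xist they were 0.06 and -0.05.

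Pcsk1 encodes PC1/3, the convertase that makes the early cuts in many precursors, and lies at chr13:75089826-75134861 on the plus strand. Its level was 108 and 114 CPM in WT, 136 and 152 CPM in Tau and 163 and 187 CPM in Tau + UNC0642. The 3 groups did not overlap and were ordered WT, Tau, Tau + UNC0642 from lowest to highest. Pcsk1 rose in Tau by a log2 fold change of 0.38 ± 0.09 (95% interval 0.17 to 0.58, edgeR adjusted p = 0.206), a call made in all 6 fits without a library. It rose further in Tau + UNC0642 against Tau, by 0.28 ± 0.09 (0.08 to 0.48, edgeR adjusted p = 0.444). This second call rested on single libraries, since the log2 fold change was 0.20 without Tau replicate 1 and 0.18 without Tau + UNC0642 replicate 2, neither of them called.

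Against WT, the Tau + UNC0642 libraries had 1.58-fold more Pcsk1 RNA (log2 0.66 ± 0.09, 95% interval 0.45 to 0.86, edgeR adjusted p = 0.0234). Pcsk1 kept this call in each of 14 alternative fits, with log2 fold changes from 0.55 to 0.75 when 1 library was left out. Its adjusted p-value ranged from 6.35e-10 to 0.336 over those fits. It was above 0.05 without WT replicate 1 (0.0761), without Tau + UNC0642 replicate 1 (0.0568) and without Tau + UNC0642 replicate 2 (0.336). These 2 Tau + UNC0642 libraries and WT replicate 1 had low Xist, and with only that WT library in the WT group the log2 fold change was 0.70. With only WT replicate 2, the high-Xist library, it was 0.62.

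Pcsk2 encodes PC2, the convertase of later cuts that is abundant in brain, and lies at chr2:143546156-143816285 on the plus strand. It had 556 and 571 CPM in WT, 602.5 and 579 CPM in Tau and 561 and 539 CPM in Tau + UNC0642. The groups lay close together, and no comparison was called in any fit. The log2 fold changes were 0.07 (-0.09 to 0.22) in Tau against WT, -0.10 (-0.26 to 0.05) in Tau + UNC0642 against Tau and -0.04 (-0.19 to 0.12) in Tau + UNC0642 against WT. Pcsk2 overlaps the antisense genes Pcsk2os1 (112 to 218 counts) and Pcsk2os2 (43 to 144 counts), and the strand setting of the counting was not given in the sources used here.

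Scg5, whose product 7B2 escorts PC2 through the secretory pathway, lies at chr2:113776362-113829121 on the minus strand. Its level was 383 and 337.5 CPM in WT, 295 and 310 CPM in Tau and 325 and 419 CPM in Tau + UNC0642. Both Tau libraries were below all 4 others, and the Tau + UNC0642 libraries were the farthest apart of the 3 groups. In Tau against WT the log2 fold change was -0.25 ± 0.11 (95% interval -0.51 to 0.0014) and was not called. It was called without WT replicate 2, at -0.34, and at -0.28 in a fit of protein-coding genes only. Without WT replicate 1 it was -0.16, and with a term for Xist it was -0.16, neither called. Scg5 rose in Tau + UNC0642 against Tau by 0.30 ± 0.11 (0.05 to 0.55, edgeR adjusted p = 0.503). The rise rested largely on Tau + UNC0642 replicate 2: the log2 fold change was 0.10 without it, 0.26 without Tau replicate 1 and 0.12 with a term for Xist, and in none of these fits was it called. Without Tau + UNC0642 replicate 1 it was 0.47. Against WT the difference was 0.05 (-0.21 to 0.30).

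Pcsk1n, the X-linked gene of proSAAS, lies at chrX:7919822-7924410 on the plus strand. It had 114 and 119 CPM in WT, 106 and 98.0 CPM in Tau and 95.6 and 94.8 CPM in Tau + UNC0642. The groups did not overlap and ran in the order opposite to that of Pcsk1. In Tau against WT the log2 fold change was -0.19 ± 0.08 (-0.37 to -0.02), short of the fold required, and in Tau + UNC0642 against Tau it was -0.10 (-0.27 to 0.08). Pcsk1n fell in Tau + UNC0642 against WT by 0.29 ± 0.08 on the log2 scale (-0.46 to -0.12, edgeR adjusted p = 0.203). Both WT replicate 1, with low Xist, and WT replicate 2, with high Xist, exceeded all 4 libraries labelled P301S Tau. The fall was not called without WT replicate 2 (-0.26) or with a term for Xist (-0.26), values just under the log2 fold of 0.263 that a call needs. Its gene overlaps Eras on the opposite strand, which had at most 2 counts.

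Cpe, the carboxypeptidase that acts after both convertases, lies at chr8:64592542-64693054 on the minus strand and was the most abundant of the 10. It had 1555 and 1546 CPM in WT, 1770 and 1762 CPM in Tau and 1706 and 1753 CPM in Tau + UNC0642, which was 39.3 to 41.5% of the summed level of the 10 genes. Both WT libraries were below the 4 libraries labelled P301S Tau, and replicates were close. The log2 fold change in Tau against WT was 0.19 ± 0.07 (0.03 to 0.34), a 1.14-fold difference that was under the fold required. It was -0.03 (-0.18 to 0.12) in Tau + UNC0642 against Tau and 0.16 (0.0030 to 0.31) in Tau + UNC0642 against WT.

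**Figure D2:**
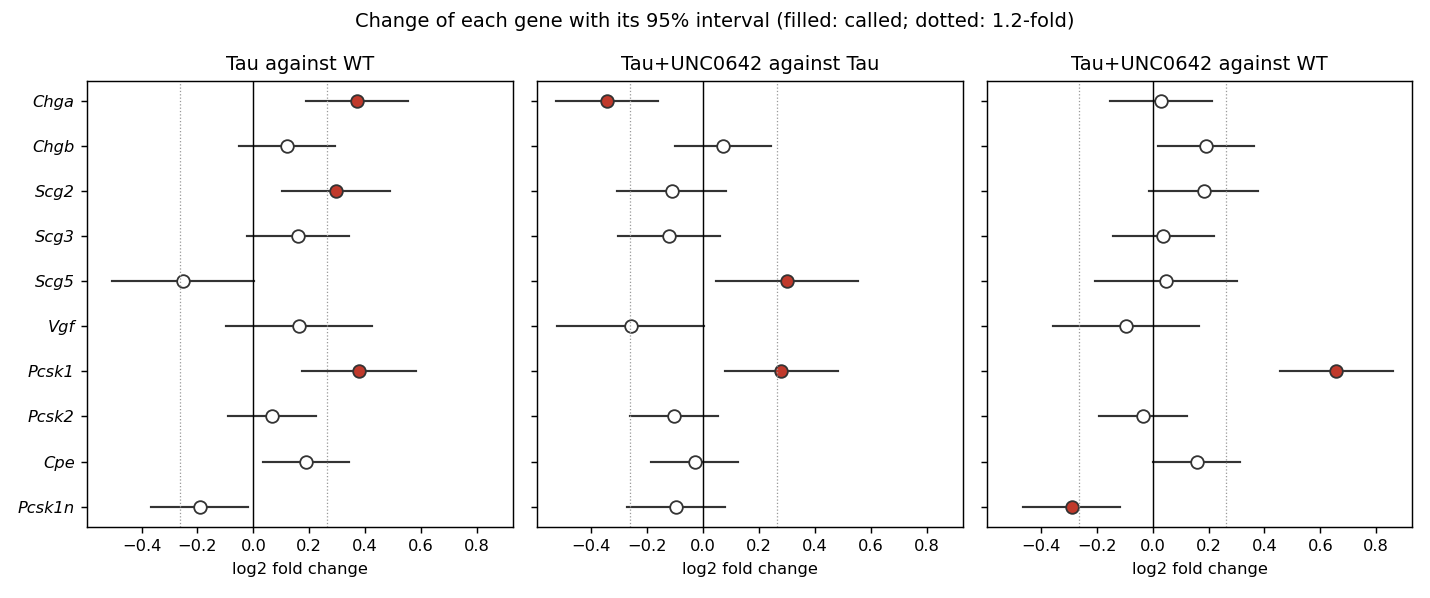
Log2 fold change of each gene with its 95% interval from the edgeR model (n = 2 against 2) in the 3 comparisons, with filled points for called genes and dotted lines at 1.2-fold. Chga has filled points on opposite sides of 0 in the first and second panels, and Pcsk1 lies to the right in every panel, at 0.38, 0.28 and 0.66.

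Within a library, the convertases could be set beside their partners without any scaling between libraries. Counts of Pcsk1 per count of Pcsk1n were 0.949 and 0.958 in WT, 1.29 and 1.55 in Tau and 1.71 and 1.97 in Tau + UNC0642. The ratio was thus nearly the same in both WT libraries and higher in each library labelled P301S Tau, with group means of -0.07 ± 0.01, 0.50 ± 0.19 and 0.87 ± 0.15 on the log2 scale (SD, n = 2). The log2 difference from WT was 0.57 in Tau and 0.94 in Tau + UNC0642, and between these it was 0.37. This last difference was 0.24 without Tau replicate 1 and 0.51 without Tau replicate 2, and over all fits without a library the others ranged from 0.44 to 0.70 and from 0.84 to 1.05.

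Counts of Pcsk2 per count of Scg5 were 1.45 and 1.69 in WT, 2.04 and 1.87 in Tau and 1.73 and 1.29 in Tau + UNC0642. Both Tau libraries had the highest ratios, and the WT and Tau + UNC0642 libraries overlapped. The log2 difference was 0.32 for Tau minus WT and -0.39 for Tau + UNC0642 minus Tau. The first was 0.21 without WT replicate 1, and the second was -0.18 without Tau + UNC0642 replicate 2 and -0.60 without replicate 1 of that group. Counts of Pcsk1 per count of Pcsk2 were 0.194 and 0.199 in WT, 0.226 and 0.263 in Tau and 0.291 and 0.346 in Tau + UNC0642. The log2 difference was 0.31 for Tau minus WT and 0.38 for Tau + UNC0642 minus Tau. The first was 0.20 without Tau replicate 2, and the second was 0.25 without Tau + UNC0642 replicate 2. No test was made on these ratios, and each difference between Tau + UNC0642 and Tau coincided with sex.

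**Figure D3:**
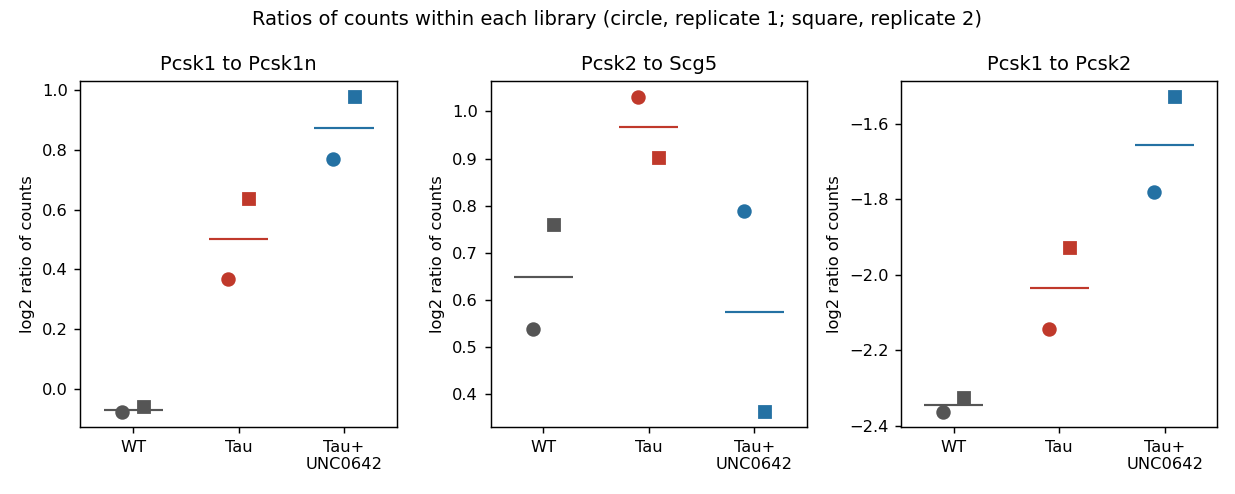
Log2 ratio of counts within each library for Pcsk1 to Pcsk1n, Pcsk2 to Scg5 and Pcsk1 to Pcsk2, with circles for replicate 1, squares for replicate 2 and lines at the mean of the 2 libraries. The ratios in the left and right panels are ordered WT, Tau, Tau + UNC0642 with no overlap, and the axes do not start at 0.

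Per kilobase of exon, the levels of the 10 genes were ordered with Cpe far above the rest at a median of 663 CPM per kilobase over the 6 libraries (592.5 to 678). Scg5 followed with 211 (188 to 267) and Chgb with 189.5 (165 to 200.2), and the ranges of these genes overlapped. Scg2 had 113 (91.0 to 124.5), Scg3 89.1 (80.9 to 98.9) and Pcsk2 71.6 (68.1 to 76.2), of which Scg2 and Scg3 overlapped and Pcsk2 did not reach Scg3. Chga (46.6, 43.1 to 61.0) and Pcsk1n (46.4, 43.2 to 54.2) could not be ordered. Vgf had 33.1 (31.9 to 43.3) and Pcsk1 was the lowest at 25.7 (19.3 to 33.3), overlapping Vgf. With the longest transcript in place of all exons, Pcsk2 stood at 119.9 CPM per kilobase and passed Scg2 and Scg3.

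The cargo of these vesicles was examined in a list of 19 neuropeptide and growth factor precursors, of which 16 were tested. In Tau against WT 6 rose and 1 fell, with a median log2 fold change of 0.21, where 3.72% of all genes were called higher and 6.1% lower. In Tau + UNC0642 against Tau 1 rose and 5 fell, with a median of -0.21 (3.73% and 3.95% of all genes). Against WT 2 rose and 2 fell, with a median of -0.03 (3.77% and 5.69%). Summed levels were 580 and 610 CPM in WT, 732 and 746 CPM in Tau and 672 and 643 CPM in Tau + UNC0642. Both Tau libraries were the highest.

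Sst, the precursor of somatostatin and the marker peptide of a class of interneurons, had 77.8 and 92.5 CPM in WT, 129.9 and 131 CPM in Tau and 103 and 97.8 CPM in Tau + UNC0642. The groups did not overlap, and the Tau libraries were the highest. Sst rose in Tau by a log2 fold change of 0.61 (edgeR adjusted p = 0.0453) and fell after UNC0642, with a log2 fold change of -0.37, and both calls were made without any single library. Its adjusted p-value in Tau against WT ranged from 0.00594 to 0.195 in the fits without a library, and with a term for Xist the second log2 fold change was -0.12 and not called. Npy, neuropeptide Y, had 59.4 and 59.6 CPM in WT, 69.4 and 82.3 CPM in Tau and 55.4 and 55.6 CPM in Tau + UNC0642, with log2 fold changes of 0.35 and -0.45, both called. The rise of Npy was not called without Tau replicate 2 (0.23).

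Tac1, the precursor of substance P, rose in Tau and fell after UNC0642 (log2 fold changes 0.79 and -0.54), and so did Penk, proenkephalin (0.78 and -1.25). Penk had 60.1 CPM in Tau replicate 2 and 16.3 to 28.9 CPM elsewhere, and without that library its log2 fold change in Tau against WT was 0.05 and not called, nor was it without WT replicate 2. The fall of Penk after UNC0642 was -0.52 without Tau replicate 2 and -1.76 without Tau replicate 1, both called. Tac1 had 26.8 CPM in the same library and 12.5 to 18.9 CPM elsewhere, and without it the second log2 fold change was -0.28 and not called, nor was it without Tau + UNC0642 replicate 1. Both peptides are abundant in striatal neurons, whose markers were highest in Tau replicate 2 (175 CPM, against 83.3 CPM in Tau replicate 1). Of 8 markers tested, 6 were called higher in Tau (3.72% of all genes) and 6 lower after UNC0642 (3.95% of all genes). The part of striatal neurons in the peptide values was not tested. Npy, Sst, Tac1, Penk and the carboxypeptidase gene Cpm also belong to the genes that the study picked on these libraries and are not independent evidence of direction.

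Bdnf, a growth factor stored in dense-core vesicles, had 28.6 and 44.9 CPM in WT, 51.9 and 53.8 CPM in Tau and 70.0 and 68.1 CPM in Tau + UNC0642. The groups did not overlap and had the same order as for Pcsk1. Bdnf rose by 0.52 (0.15 to 0.89) in Tau, by 0.39 (0.02 to 0.75) in Tau + UNC0642 against Tau and by 0.91 in Tau + UNC0642 against WT (edgeR adjusted p = 0.0686). The first rise was 0.23 and not called without WT replicate 1, and the second (0.36 to 0.41) was not called in any of the 4 fits that left out a Tau or Tau + UNC0642 library. That against WT was called in all 6 fits without a library, from 0.62 to 1.27.

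Among the other precursors, Cort, cortistatin, rose in Tau by 0.95, on at most 100 counts a library. The call was lost without WT replicate 1 or Tau replicate 1. Over all fits without a library the log2 fold change of Cort ranged from 0.77 to 1.16. Pdyn, prodynorphin, fell after UNC0642 (log2 fold change -0.39), a call lost without Tau replicate 2 or either Tau + UNC0642 library. Trh, thyrotropin-releasing hormone, fell in Tau (log2 fold change -2.76), with WT replicate 1 alone at 16.8 CPM and the other 5 libraries at 0.586 to 1.32 CPM. The call was lost without either Tau library, and without WT replicate 1 the log2 fold change was 1.11 and not called.

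Of 16 other enzymes that cut, trim or amidate precursors, 14 were tested. In Tau against WT 1 rose (Cpm) and none fell, beside 3.72% and 6.1% of all genes, with a median log2 fold change of 0.03. In Tau + UNC0642 against Tau none rose and 2 fell (Cpm and Pcsk4), beside 3.73% and 3.95% of all genes, with a median of -0.04. Cpm, which encodes the membrane-bound carboxypeptidase M, had 22.0 CPM in Tau replicate 2 and 6.25 to 9.40 CPM in the other 5 libraries, and without Tau replicate 2 its log2 fold changes of 1.06 and -1.06 were 0.34 and -0.34, neither called. The first was also not called without WT replicate 2 and the second not without Tau + UNC0642 replicate 1. Pcsk4, a convertase best known from germ cells, fell in Tau + UNC0642 against Tau (log2 fold change -1.13), from 3.43 and 2.63 CPM to 1.42 and 1.37 CPM, and this call was made without any single library. Pam, the enzyme that amidates peptide ends, had a log2 fold change of 0.03 (-0.15 to 0.20) in Tau against WT and 0.09 (-0.09 to 0.27) in Tau + UNC0642 against Tau. Pam was chosen after its values were seen, as the step that follows Cpe.

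The machinery that builds, moves and releases dense-core vesicles was measured for all 19 genes listed. In Tau against WT 1 rose and none fell, beside 3.72% and 6.1% of all genes, with a median log2 fold change of 0.08. In Tau + UNC0642 against Tau none rose and 2 fell, beside 3.73% and 3.95%, with a median of -0.03. Cadps2, which primes dense-core vesicles for release, had 148 and 146 CPM in WT, 179 and 187 CPM in Tau and 181 and 167 CPM in Tau + UNC0642. It rose by 0.32 in Tau (edgeR adjusted p = 0.197), in every fit without a library, and all 4 libraries labelled P301S Tau were above both WT libraries. Rph3a, a Rab3 effector on synaptic vesicles, fell after UNC0642 (log2 fold change -0.33). The call was lost without Tau replicate 1 (-0.24) or Tau + UNC0642 replicate 2. Ptprn, a membrane protein of dense-core vesicles, also fell (-0.26), and the call was lost without Tau replicate 1 (-0.10) or either Tau + UNC0642 library.

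**Figure D4:**
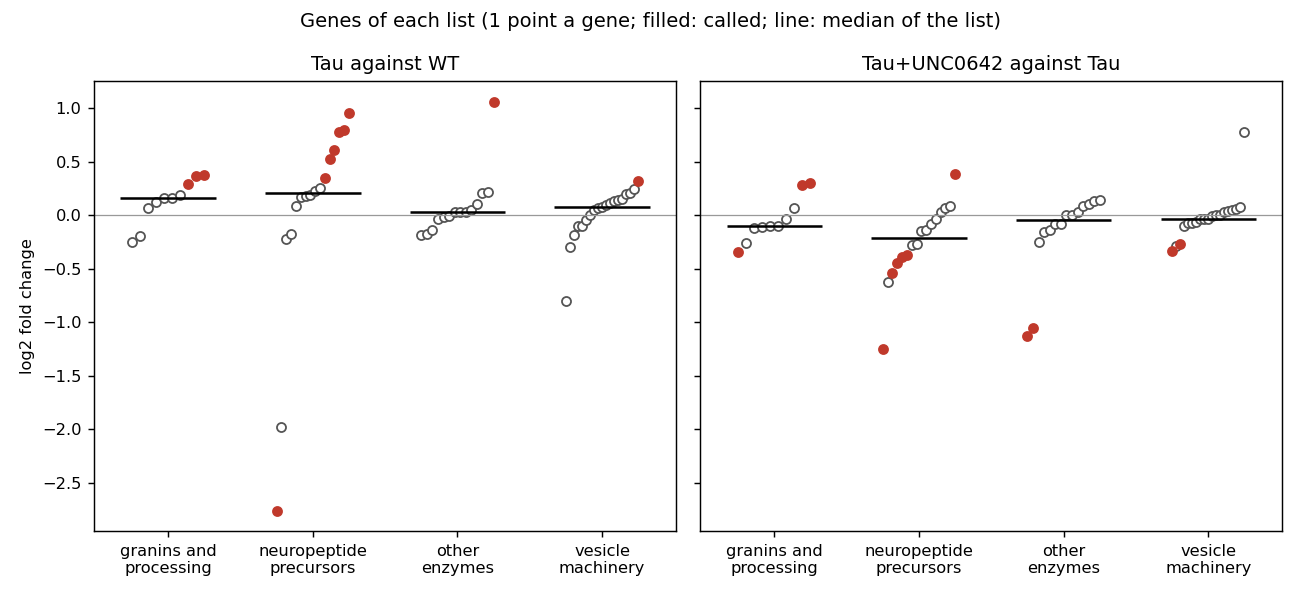
Log2 fold change of each tested gene in 4 lists (10 granin and processing genes, 16 neuropeptide precursors, 14 other enzymes and 19 genes of vesicle machinery), with filled points for called genes and a line at each median. Precursor medians lie at 0.21 in Tau against WT and -0.21 in Tau + UNC0642 against Tau, and these comparisons share the Tau libraries.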

How the data were processed

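PFC RNA was depleted of ribosomal RNA and made into stranded TruSeq libraries. The authors trimmed reads with Cutadapt, aligned them with TopHat2 and deposited counts per gene from featureCounts, without normalization, and the submitters' processing notes also name SAMtools, edgeR and build mm10, which is GRCm38. In 2 libraries 26 gene names had turned into dates and were joined by position.

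Counts were analysed with edgeR 4.0.16 in R 4.3.3. Genes passed filterByExpr (minimum count 10, minimum total 15), libraries were scaled by TMM (factors 0.966 to 1.04) and all 6 libraries entered 1 quasi-likelihood fit with group means (3 residual degrees of freedom, biological coefficient of variation 12.3%). Standard errors and 95% intervals are those of the fit, and an SD spans the 2 libraries in a group. Replicates differed beyond counting noise and were not duplicates. The procedure was tested on simulated data. Positions and exon lengths are from GENCODE M21.

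The 10 genes, the related lists and the markers were chosen with earlier results of these data known. All 10 were named, with the genes of the related lists called in Tau against WT or Tau + UNC0642 against Tau (at most 8 a list), Ehmt1, Ehmt2, Mapt, Prnp and sex-linked genes. Alternatives were DESeq2 1.42.0 size factors and Wald test, limma-voom (limma 3.58.1), no filter, fits with only the groups compared, a replicate block, a term for high or low Xist, other thresholds and fits without each library. Restriction to protein-coding genes was chosen after seeing the data. Protein sequences were not used here.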

Additional observations from a re-analysis of the deposited data

How the results depend on the processing

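With 2 mice a group the fits have few degrees of freedom, and a fit without 1 library assumes that the lone library left in its group varies like the others. Of the log2 fold changes of the 10 genes in 14 alternative fits, 393 kept their direction and call, 12 changed sign, 7 gained and 8 lost a call. The number of the 10 genes called (3 in Tau against WT, 3 in Tau + UNC0642 against Tau, 2 in Tau + UNC0642 against WT) was 0, 0 and 1 at a fold of 1.5, 0, 0 and 1 at an adjusted p-value under 0.05, and 3 to 4, 1 to 4 and 1 to 4 without 1 library. With a term for Xist it was 1 in the last comparison. With no filter on low counts 3, 2 and 1 of the 10 passed an adjusted p-value of 0.05, as did 656, 483 and 733 of 34535 genes. Called neuropeptide precursors (7, 6 and 4) numbered 4 to 10, 3 to 6 and 1 to 6 without 1 library. Other enzymes (1 and 2 in the first and second comparisons) numbered 0 to 2 and 1 to 3. Vesicle machinery (1, 2 and 2) numbered 1 to 3, 0 to 2 and 1 to 3, and in Tau + UNC0642 against Tau it was 1 with DESeq2 size factors, without a filter and in protein-coding genes only.

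Replicate numbers did not pair the libraries, which came from different mice, and the deviations of same-numbered libraries correlated at -0.034, -0.021 and -0.003. With a replicate block the 10 genes gave the same calls, vesicle machinery numbered 2 in Tau against WT and 1 in Tau + UNC0642 against Tau, and precursors numbered 2 in Tau + UNC0642 against WT.

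Signs changed only for differences that were not called. Without 1 library Vgf in Tau against WT ranged from -0.0275 to 0.33 and, in Tau + UNC0642 against WT, Chga ranged from -0.0296 to 0.0901, Scg3 from -0.0264 to 0.10, Scg5 from -0.15 to 0.22 and Vgf from -0.20 to 0.0168. With the Xist term Chgb was -0.0802 in Tau + UNC0642 against Tau, and against WT Chga was -0.030, Scg3 -0.0267, Scg5 -0.0407 and Vgf 0.0164. The causes were not tested.

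Over all genes, Tau against WT gave 759 higher and 1244 lower (32 with an adjusted p-value under 0.05), against 898 and 1890 (656) without a filter, 578 and 744 (153) with the DESeq2 Wald test, 945 and 935 with the Xist term and 494 and 701 in protein-coding genes. Tau + UNC0642 against Tau gave 762 and 807 (4), against 1173 and 1169 (483), 494 and 561 (71), 825 and 817 and 335 and 573, in the same order.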
